A study of Mus musculus with 2 samples.

Results

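The placental prolactin (Prl), pregnancy-specific glycoprotein (Psg), carcinoembryonic antigen-related cell adhesion molecule (Ceacam), placental cathepsin and trophoblast-specific protein (Tpbp) families were followed in differentiating mouse ESCs. Members were taken by gene symbol: every numbered Prl, Psg and Ceacam gene, the cathepsins Cts3, Cts6, Cts7, Cts8, Ctsj, Ctsm, Ctsq and Ctsr, and Tpbpa and Tpbpb. The rule gave 64 of 24354 genes, namely 26 Prl, 13 Psg, 15 Ceacam, 8 cathepsin and 2 Tpbp genes. The study sequenced poly(A) RNA from differentiating control ESCs (Diff–CONT, 1 culture) and from ESCs with an inducible Ino80 knockout (Diff–iKO, 1 culture), which gives 1 library per condition. Ino80 encodes the ATPase of the INO80 chromatin remodelling complex. Per the study's methods, both lines carried the floxed Ino80 2f/2f allele and came from separate blastocysts, and the ROSA26-CreER transgene, whose recombinase is active with 4-OHTM, was present only in the iKO line. In the sample labels the control genotype is given as wild type. Both cultures formed embryoid bodies (EBs) that were plated on day 4, then spent 7 days in a serum-containing medium with BMP4 and 0.5 µM 4-OHTM. A difference between the libraries therefore cannot be told apart from a difference between the lines or cultures, and no p-value can be given.

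In rodents, these families are read out mainly in trophoblast, the lineage that forms the fetal part of the placenta. Trophoblast giant cells line the maternal interface and secrete placental lactogens, which act through the prolactin receptor, and proliferins, which act on blood vessels. Spongiotrophoblast and glycogen cells form the junctional zone, which secretes other prolactin-like hormones and the Psg proteins. The placental cathepsins are lysosomal cysteine proteases that arose by duplication in rodents, and Ceacam proteins are cell surface members of the immunoglobulin superfamily, several of them placental in the mouse.

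Levels were given as FPKM, which is a level per transcript length, so that levels of different genes can be compared. From the steps in the low FPKM values, 27600413 fragments on genes were recovered for Diff–CONT ESCs and 21467045 for the library labelled Diff–iKO. Each log2 ratio has a 95% interval computed from these fragments by the exact Clopper-Pearson method, called the counting interval here, which leaves out the spread between cultures. For transcripts of the lengths of the members, the limit of 3 fragments lay between an FPKM of 0.0190 and 0.207 in Diff–CONT ESCs and between 0.0255 and 0.278 in the other. Ino80 had an FPKM of 8.90 in Diff–CONT ESCs and 10.3 in the library labelled Diff–iKO, at a log2 ratio of 0.21 (counting interval 0.11 to 0.31). The value per gene does not resolve the deleted exon and so does not check the label.

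Most members that were expressed had a higher level in the library labelled Diff–iKO. Of the 64 members, 48 were above 0 in Diff–CONT ESCs and 54 in the library labelled Diff–iKO. Over all 24354 genes, 6377 and 6311 were at 0 in these libraries. An FPKM of at least 2 was reached by 5 and 18 members. The summed FPKM of all members was 38.9 and 224, a fold of 5.76. With the study's cut-off of FC ≥ 2 and FPKM ≥ 2, applied here without a pseudocount and with the FPKM minimum met in at least 1 library, 17 of the 18 members that met the minimum were higher and 0 were lower. Over all 12376 genes that met it, 6.73% were higher and 8.39% were lower. A member that met the minimum only through the library labelled Diff–iKO was more likely to be counted as higher, and only 5 of the 18 had an FPKM of at least 2 in both libraries: Ctsj, Prl2a1, Prl2c5, Prl7d1 and Prl2c3. Without regard to the cut-off, 50 members had a higher value in the library labelled Diff–iKO, 7 had a lower value and 7 were at 0 in both. Some of the 50 rest on few fragments, such as Cts7, with 1.76 in each library. The counting interval lay above 0 for 29 members and below 0 for 2. As these are bulk RNA libraries, more cells of a type and more RNA per cell cannot be told apart.

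The 17 members past the cut-off ranged from a fold of 2.63 for Ceacam9 to 12.8 for Prl3d1. The counting interval lay wholly above the cut-off for 16 of the 17 members, Ceacam9 being the exception. Prl2b1 was the 1 member that met the FPKM minimum and was not past the cut-off.

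**Figure D1:**
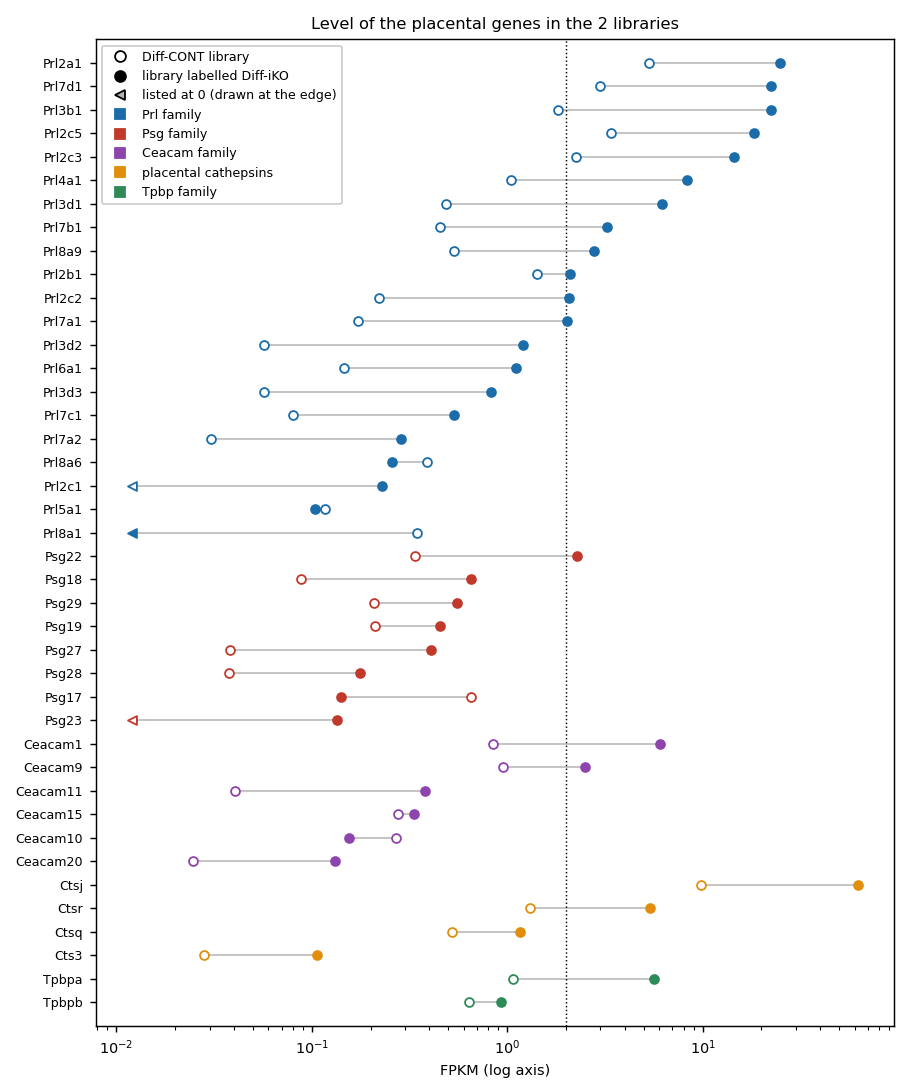
FPKM (log axis) of the 41 members with an FPKM of at least 0.1 in at least 1 library, with the Diff–CONT library as open points, the library labelled Diff–iKO as filled points and colours for the families. The dotted line marks an FPKM of 2; filled points lie to the right of open points for most genes, and Psg17, Prl8a1, Prl8a6, Prl5a1 and Ceacam10 run the other way.

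**Figure D2:**
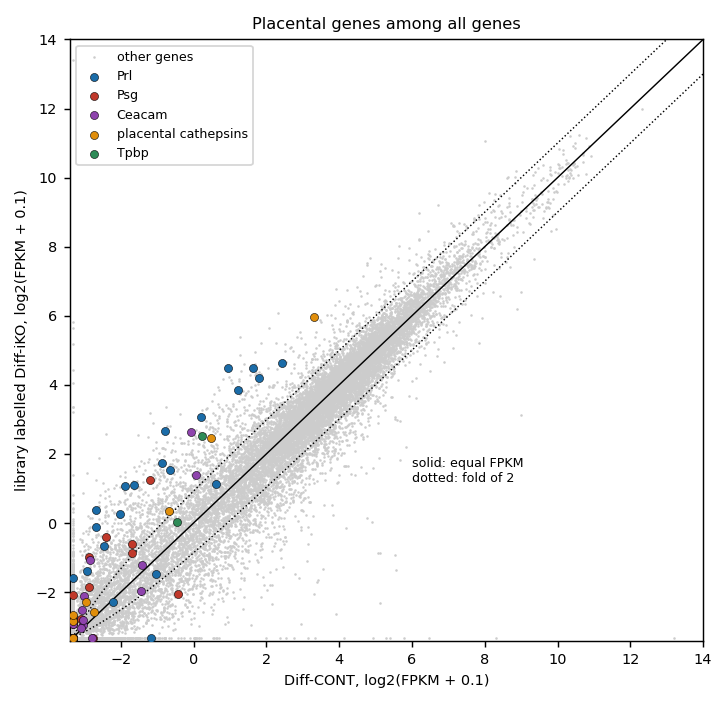
Each gene by its log2(FPKM + 0.1) in the Diff–CONT library (x axis) and in the library labelled Diff–iKO (y axis), with members coloured by family and all other genes in grey. The solid line marks equal values and the dotted lines a fold of 2; the members with the highest levels, led by Ctsj, lie above the upper dotted line.

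The starts of the Prl genes share letters that 1 gene of the other families held. RefSeq sequences of 250 bases before to 50 bases after the start (GRCm38.p6) were found for 54 of the 64 members. The letters TATATA, chosen after the sequences were read and searched on the sense strand, were in this window for 19 of the 21 Prl genes with a sequence, 1 of 8 cathepsins, 0 of 10 Psg genes, 0 of 13 Ceacam genes and 0 of 2 Tpbp genes. In 18 of the Prl genes they began between 20 and 50 bases before the start, a placing found in 1.16% of 32851 promoters of all genes. The GATA motif AGATAA and the AP-1 motif TGANTCA, each searched on both strands, were not limited to 1 family. AGATAA was in 10 of the 21 Prl genes, 7 of 13 Ceacam genes, 1 of 10 Psg genes, 0 of 8 cathepsins and 0 of 2 Tpbp genes. TGANTCA was in 9 of the 21 Prl genes, 3 of 10 Psg genes, 1 of 13 Ceacam genes, 0 of 8 cathepsins and 2 of 2 Tpbp genes. All promoters held AGATAA in 11.2%, TGANTCA in 7.81% and TATATA in 5.67% of cases. The AGATAA and TATATA searches can overlap by shared letters and were counted separately. A match is a run of letters and not evidence of a bound factor.

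The 250 bases before the start are printed for 7 members, 5′ to 3′ on the gene's strand, with TATATA in capitals, as are the letters AGATAA (or, for the opposite strand, TTATCT) and TGANTCA. Among these, Prl3d1 and Prl3b1 were chosen as the placental lactogen genes past the cut-off. Prl7d1 and Prl2c3 were taken as genes of separate clusters with similar starts. Prl4a1 and Prl2a1 were taken as other highly expressed Prl genes, and Ctsj as the highest member without these letters.
Prl3d1 (chr13:27093939-27094188, plus strand): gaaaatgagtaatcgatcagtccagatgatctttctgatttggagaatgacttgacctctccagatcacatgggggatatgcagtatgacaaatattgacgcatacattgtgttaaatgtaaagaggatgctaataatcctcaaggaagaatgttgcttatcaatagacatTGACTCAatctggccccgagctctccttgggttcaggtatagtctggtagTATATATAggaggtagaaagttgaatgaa
Prl3b1 (chr13:27242180-27242429, plus strand): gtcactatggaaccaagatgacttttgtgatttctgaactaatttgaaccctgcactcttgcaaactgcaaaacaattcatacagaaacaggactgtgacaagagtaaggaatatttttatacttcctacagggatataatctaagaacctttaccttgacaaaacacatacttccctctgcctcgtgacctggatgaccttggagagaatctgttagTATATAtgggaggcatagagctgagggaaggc
Prl7d1 (chr13:27716738-27716987, minus strand): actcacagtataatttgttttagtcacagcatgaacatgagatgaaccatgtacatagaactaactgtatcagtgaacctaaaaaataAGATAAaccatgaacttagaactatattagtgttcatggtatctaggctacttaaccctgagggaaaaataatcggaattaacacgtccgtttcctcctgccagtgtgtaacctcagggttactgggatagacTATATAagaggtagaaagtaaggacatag
Prl2c3 (chr13:12800080-12800329, minus strand): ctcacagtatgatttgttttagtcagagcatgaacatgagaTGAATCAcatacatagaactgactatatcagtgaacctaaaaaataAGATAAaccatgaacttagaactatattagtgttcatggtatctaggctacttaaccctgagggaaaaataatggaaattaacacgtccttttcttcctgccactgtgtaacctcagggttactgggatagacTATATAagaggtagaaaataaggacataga
Prl4a1 (chr13:28015962-28016211, plus strand): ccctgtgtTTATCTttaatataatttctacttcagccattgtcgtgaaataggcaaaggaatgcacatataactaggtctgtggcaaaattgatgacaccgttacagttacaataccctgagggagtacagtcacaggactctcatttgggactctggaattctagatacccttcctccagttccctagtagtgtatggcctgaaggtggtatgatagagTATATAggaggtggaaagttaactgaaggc
Prl2a1 (chr13:27801405-27801654, plus strand): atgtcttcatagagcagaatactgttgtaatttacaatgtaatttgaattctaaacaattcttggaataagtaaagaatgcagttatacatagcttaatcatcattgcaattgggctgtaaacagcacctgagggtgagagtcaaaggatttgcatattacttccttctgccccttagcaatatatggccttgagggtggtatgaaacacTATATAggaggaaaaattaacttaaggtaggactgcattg
Ctsj (chr13:61005926-61006175, minus strand): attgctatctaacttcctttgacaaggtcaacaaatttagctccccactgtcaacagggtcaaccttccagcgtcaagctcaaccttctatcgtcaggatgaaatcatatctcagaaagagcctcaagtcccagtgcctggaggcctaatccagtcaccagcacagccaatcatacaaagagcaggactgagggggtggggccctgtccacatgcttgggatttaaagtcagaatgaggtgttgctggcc

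The run of TATATA began 29 bases before the start in Prl3d1, 32 in Prl3b1, 29 in Prl7d1, 30 in Prl2c3, 30 in Prl4a1 and 40 in Prl2a1. Prl7d1 and Prl2c3 were identical at 284 of 299 aligned bases of the 300-base window, although their mRNAs were 67.8% identical over 823 aligned bases. Both held AGATAA, 162 and 163 bases before the start. The AP-1 letters were present in Prl2c3, 209 bases before the start, and not in Prl7d1. The windows of Prl3d1 and Prl3b1 aligned with 66.4% identity. The printed genes were chosen with their levels known, and TATATA was also present in members not past the cut-off. It began 32 bases before the start in Prl2b1, 30 in Prl5a1, 29 in Prl8a1, 27 in Prl8a8 and 47 in Prl3c1, none of which was past the cut-off, and Ctsj, which was, held none of the motifs.

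Placental lactogens had the largest folds among the members past the cut-off. Prl3d1, which encodes placental lactogen I of early giant cells (chromosome 13, 27094189 to 27100260), had an FPKM of 0.484 in Diff–CONT ESCs and 6.19 in the library labelled Diff–iKO. Its log2 ratio was 3.68 (counting interval 2.72 to 4.80). Prl3b1, which encodes placental lactogen II of later giant cells (27242430 to 27249683), had an FPKM of 1.82 and 22.4, and a log2 ratio of 3.62 (3.13 to 4.15). The intervals of these lactogen genes overlapped. Prl3d2 and Prl3d3, near copies of Prl3d1, went from 0.0567 in both cases to 1.21 and 0.831 and stayed under the FPKM minimum, with intervals of 1.85 to 9.34 and 1.23 to 8.81 on the log2 ratio. The mRNA of Prl3d1 was 98.3% identical to that of Prl3d2, and 56.8% of its 50-base windows occurred in another transcript, so the split of fragments among the 3 genes is uncertain. Summed over the 3 genes, the FPKM was 0.597 and 8.23, a log2 ratio of 3.78 with a counting interval of 2.92 to 4.78.

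Of the proliferin genes, Prl2c5 and Prl2c3 were among the 5 highest Prl genes in both libraries. Prl2c5 (chromosome 13, 13182703 to 13191930) had an FPKM of 3.41 and 18.3, and a log2 ratio of 2.43 (2.03 to 2.84). Prl2c3 (12790816 to 12800093) was at 2.25 and 14.4, with 2.68 (2.21 to 3.18). Prl2c2 (12996120 to 13005393) was at 0.221 and 2.06, with 3.22 (1.75 to 5.11), and fell under the FPKM minimum when both libraries were scaled to the same sum. These 3 genes lie in a cluster of their own and share sequence: Prl2c2 and Prl2c3 were 99.5% identical as mRNAs, and 89.5%, 78.6% and 38.6% of the 50-base windows of Prl2c2, Prl2c3 and Prl2c5 occurred elsewhere. Summed, they gave an FPKM of 5.89 and 34.8, a log2 ratio of 2.56 (2.27 to 2.87). Prl2c1, which lies in the main Prl cluster, was listed at 0 in Diff–CONT ESCs and had an FPKM of 0.230 in the other, from 2.48 fragments. Prl2c4 was listed with values close to 0 in both libraries and could not be matched to a transcript, so it has no interval.

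Prl7d1, which encodes proliferin-related protein, an inhibitor of angiogenesis (27708998 to 27716737), had an FPKM of 3.0 in Diff–CONT ESCs and 22.4 in the library labelled Diff–iKO (log2 2.90, 2.54 to 3.29). Prl4a1 (28016212 to 28023548), a prolactin-like protein that binds natural killer cells, was at 1.05 and 8.27 (2.98, 2.31 to 3.71). Prl7a1 (27633364 to 27642493) was at 0.173 and 2.01 (3.54, 2.02 to 5.57), a value that rests on 3.79 fragments in the Diff–CONT library and whose call was also lost under that scaling. These 3 hormone genes had intervals that overlapped each other and those of the lactogens. Prl7a2, the neighbour of Prl7a1, had an FPKM of 0.0305 and 0.286, and Prl7c1 of 0.0803 and 0.536, both under the minimum with intervals above 0.

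Genes assigned to glycogen cells followed the same direction. Prl2a1 (27801655 to 27808716) had the highest FPKM of all Prl genes in both libraries, 5.31 and 24.9, with a log2 ratio of 2.23 (1.92 to 2.55). That interval lay below the interval of Prl3b1, so the fold of Prl2a1 was smaller beyond counting error. Prl7b1 (27601812 to 27610582) was at 0.451 and 3.25 (2.85, 1.85 to 4.00). Prl6a1 was at 0.147 and 1.11 and did not meet the FPKM minimum (2.92, 1.11 to 5.36).

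Prl genes of the spongiotrophoblast were divided. Prl8a9 (27557995 to 27564606) had an FPKM of 0.535 and 2.79, and a log2 ratio of 2.39 (1.45 to 3.44). Prl2b1 (27383345 to 27390846) was at 1.43 and 2.10, a fold of 1.47 whose interval of -0.22 to 1.34 includes both 0 and the cut-off. Its interval ended below the start of that of Prl8a9. The levels of Prl8a6 (0.387 and 0.257) and Prl5a1 (0.116 and 0.104) did not differ beyond counting error. Prl8a1 had an FPKM of 0.344 in Diff–CONT ESCs, from 6.87 fragments, and was listed at 0 in the library labelled Diff–iKO, where the limit of 3 fragments is an FPKM of 0.201. Prl3a1 and Prl8a8 were at 0 in both. Prl7a2, given above, is also assigned to this subtype. It was higher beyond counting error (log2 3.23, 0.25 to 8.77) from few fragments, under the FPKM minimum.

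The Prl family as a whole had 12 members with an FPKM of at least 2 in a library, of which 11 were past the cut-off and higher. Only 4 of the 12 had an FPKM of at least 2 in Diff–CONT ESCs. Over all genes that met the minimum, 6.73% were higher. The summed FPKM of the family was 21.4 in Diff–CONT ESCs and 134 in that labelled Diff–iKO, a fold of 6.26. No single gene held more than 18.6% of the latter sum. The pooled fragments gave a log2 ratio of 2.65 (2.51 to 2.80). The median log2 ratio of FPKM + 0.1 was 2.39 over the 21 members with an FPKM of at least 0.1 in a library, beside -0.0015 over 16843 genes with the same minimum. Prolactin itself, the pituitary hormone gene Prl, is not a member by the rule.

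Psg genes were low in both libraries. These genes encode secreted immunoglobulin-type glycoproteins of the junctional zone. Psg22 (chromosome 7, 18718051 to 18727438) had an FPKM of 0.336 in Diff–CONT ESCs and 2.27 in the library labelled Diff–iKO, where it was the highest of the family, and was the only Psg gene past the cut-off (log2 ratio 2.76, 1.99 to 3.61). Psg18 (0.0881 and 0.651), Psg29 (0.209 and 0.552) and Psg27 (0.0379 and 0.406) were also higher beyond counting error, under the FPKM minimum. Psg23 was listed at 0 in Diff–CONT ESCs and had an FPKM of 0.134 in the other, from 5.97 fragments, and the interval on its log2 ratio starts at 0.65. Psg19 (0.212 and 0.453) and Psg28 (0.0375 and 0.176) had intervals that include 0.

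Psg17 ran against its family. It had an FPKM of 0.649 in Diff–CONT ESCs, the highest Psg value there, and 0.141 in the library labelled Diff–iKO, from 37.1 and 6.02 fragments (log2 ratio -2.20, counting interval -3.74 to -0.95). Psg17 lies at the edge of the Psg cluster (18813937 to 18821591), next to Psg19, and its mRNA was 87.7% identical to that of Psg22 over the aligned bases. Of its 50-base windows, 8.73% occurred in another transcript. Psg26 was at 0 in both libraries, and Psg16, Psg20, Psg21 and Psg25 were under 0.1 in both. The summed Psg level was 1.63 and 4.90. The pooled Psg fragments gave a log2 ratio of 1.48 (1.15 to 1.82). That interval lay below the interval of the Prl family, so the fold of the Psg family was smaller beyond counting error.

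Ceacam genes were carried by a pair of members. Ceacam1, an adhesion molecule of epithelia and endothelia (25461702 to 25477647 on chromosome 7), had an FPKM of 0.850 in Diff–CONT ESCs and 6.06 in the library labelled Diff–iKO, and a log2 ratio of 2.83 (2.17 to 3.56). Its close relative Ceacam2, with which it shares 16.9% of its 50-base windows, was at 0.0218 and 0.0293. Ceacam9, a placental Ceacam (16721929 to 16726110), was at 0.953 and 2.51, with a log2 ratio of 1.40 and an interval of 0.78 to 2.03 that includes the cut-off, and was not past it with a pseudocount of 1. The interval of Ceacam9 lay wholly below that of Ceacam1. Ceacam11 (0.0404 and 0.377) and Ceacam20 (0.0246 and 0.132) were higher beyond counting error from few fragments, while Ceacam15 (0.276 and 0.333) and Ceacam10 (0.270 and 0.155) did not differ beyond it. The other 8 Ceacam genes were under 0.1 in both libraries, Ceacam12 at 0. The family sum was 2.54 and 9.87, of which Ceacam1 held 61.4% in the library labelled Diff–iKO. The pooled fragments of the family gave a log2 ratio of 1.86 (1.49 to 2.24).

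Among the cathepsins, Ctsj (chromosome 13, 61000179 to 61005925) had the highest level of all 64 members in both libraries. Its FPKM was 9.77 in Diff–CONT ESCs and 62.4 in the library labelled Diff–iKO, from 315 and 1502 fragments, and its log2 ratio of 2.68 (2.50 to 2.86) had the narrowest interval of the members. By level it ranked 7437 of 24354 genes in Diff–CONT ESCs and 1267 in the other. Ctsr (61159215 to 61164188) was at 1.30 and 5.39 (2.05, 1.57 to 2.55). Ctsq, a marker of sinusoidal giant cells, was at 0.524 and 1.17 and did not meet the FPKM minimum (1.16, 0.28 to 2.07), and its interval ended below that of Ctsj.

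The other placental cathepsins were close to 0. Cts3 had an FPKM of 0.0282 and 0.106, Cts6 of 0 and 0.0392, Cts7 of 0.0510 and 0.0682 and Cts8 of 0 and 0.0580, each from at most 3.0 fragments, and Ctsm was listed at 0 in both. The sum of the cathepsins was 11.7 and 69.2, of which Ctsj held 90.1% in the library labelled Diff–iKO. Their pooled fragments gave a log2 ratio of 2.56 (2.40 to 2.72). None of the 50-base windows of Ctsj, Ctsq or Ctsr occurred in another gene's transcript, and the Ctsj mRNA was 75.7% identical to that of Ctsr.

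Tpbpa, the usual marker of ectoplacental cone and spongiotrophoblast (60938492 to 60941936), had an FPKM of 1.07 in Diff–CONT ESCs and 5.63 in the library labelled Diff–iKO (log2 2.40, 1.92 to 2.90). Tpbpb was at 0.636 and 0.932 with an interval of -0.67 to 1.78. Only 2.42% of the windows of Tpbpa were shared with Tpbpb, although the mRNAs were 91.3% identical where they aligned. The interval of Tpbpb ended below the start of that of Tpbpa.

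By trophoblast subtype, the members assigned to giant cells had the highest median log2 ratio. The assignment rests on general knowledge of where each gene is expressed, made with results of these data known. Of 14 giant cell members, 8 met the FPKM minimum and 8 were higher past the cut-off, where 6.73% of all genes that met it were higher. Of the giant cell, glycogen cell and spongiotrophoblast members, only Ctsj, Prl2c5, Prl2c3 and Prl2a1 had an FPKM of at least 2 in both libraries. The giant cell members had a median of 2.75 over 11 genes (log2 ratio of FPKM + 0.1) and a summed FPKM of 19.9 and 139. Several of these 14 share sequence, and over the 5 genes left without members that share over 20% of their 50-base windows the median was 2.86. For 3 glycogen cell members the median was 2.29 and the sum 5.91 and 29.2, with 2 past the cut-off. For 15 spongiotrophoblast members the median was 0.68 over 12 genes and the sum 5.51 and 13.5. In that list 2 of 3 members that met the minimum, Tpbpa and Prl8a9, were past the cut-off, and Psg17 and Prl8a1 ran the other way. The gap between these medians depends on the filter: over members with an FPKM of at least 1 in a library, the median was 2.81 for giant cell and 2.19 for spongiotrophoblast members. The decidual genes Prl8a2 and Prl3c1, expressed by maternal cells of the pregnant uterus, were at 0 in both libraries. The 8 placental Ceacam genes had a median of 1.31 over 3 genes and the 7 other Ceacam genes 0.90 over 3 genes.

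Members that were not detected fell in every large family. At 0 in both libraries were Prl3a1, Prl3c1, Prl8a2 and Prl8a8, Psg26, Ceacam12 and Ctsm. For these 7 genes, 3 fragments would be an FPKM of between 0.0529 and 0.160 in Diff–CONT ESCs and between 0.0708 and 0.214 in the other, so levels under these were not detectable. A further 16 members were under 0.1 in both, which leaves 23 members with an FPKM of at least 0.1 and under 2. Of these 23, 16 had a fold of at least 2 and were higher, 2 were lower (Prl8a1 and Psg17) and 5 were neither, and over all 4467 genes in that range 27.4% were higher and 23.5% were lower. The counting interval lay above 0 for 12 and below 0 for 2 of the 23. Over 24 members with at least 20 fragments in the 2 libraries together, a limit chosen after seeing the data, 21 had a fold of at least 2 and were higher, 1 (Psg17) was lower, and Prl2b1 and Tpbpb were neither, where 8.75% of 14727 genes with as many fragments were higher and 11.4% were lower.

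The members past the cut-off lie in 4 gene clusters and, for Ceacam1, outside them. As above, members that met the FPKM minimum only through the library labelled Diff–iKO were more likely to be counted as higher. The main Prl cluster on chromosome 13 (27094189 to 28151595) holds 22 Prl genes and no other gene of the deposited values, and 8 of its 9 members that met the FPKM minimum were past the cut-off and higher. Within 1 Mb on either side, 7 other genes lie, of which 2 met the minimum and 0 were past the cut-off. The Prl2c cluster (12790816 to 13191930) had 3 of 3 members higher, and of 11 genes within 1 Mb that met the minimum 0 were past the cut-off. In the cathepsin and Tpbp cluster (60901295 to 61570170), 3 of 3 members that met the minimum were higher, and of its other genes Ctla2a, which encodes a cathepsin inhibitor, was at 5.45 and 4.59. Near it, 3 of 7 genes were higher (BC052688, Gm3604 and Zfp808) and 1 (Gas1) was lower.

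The Psg and Ceacam cluster on chromosome 7 (16671331 to 18821591) differs in that 18 other genes lie among its 21 members. Of its members, 2 met the FPKM minimum, Psg22 and Ceacam9, and both were past the cut-off and higher. Of the other genes inside, 12 met the minimum, 0 were higher and 5 were lower (Ccdc8, Dact3, Gng8, Hif3a and Pnmal2). Within 1 Mb outside it, 2 of 50 genes were higher and 7 were lower.

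**Figure D3:**
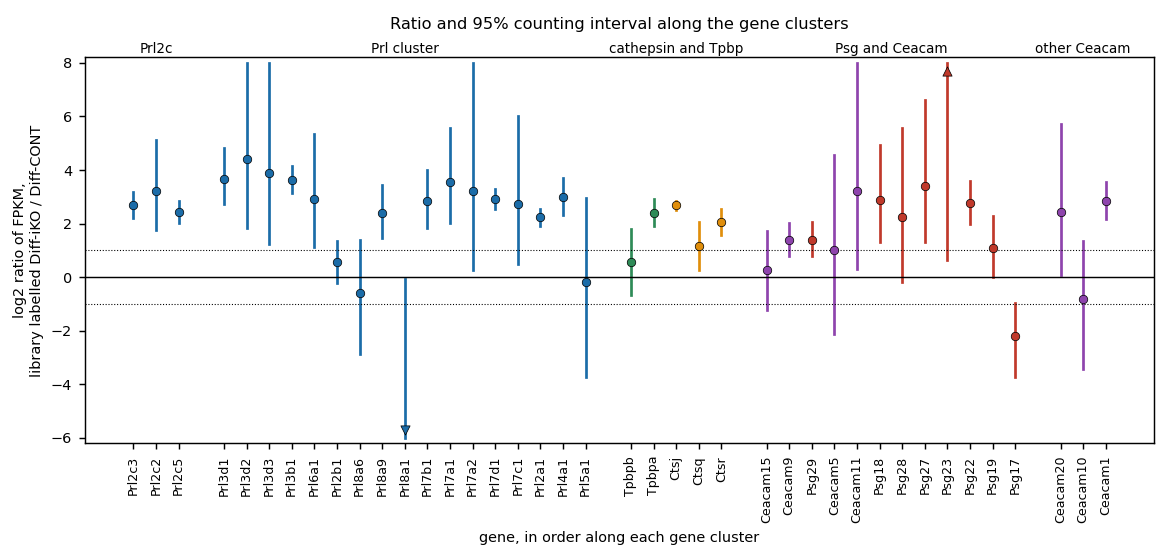
Log2 ratio of FPKM (library labelled Diff–iKO to Diff–CONT) with its 95% counting interval for members with at least 5 fragments over both libraries, in their order along each cluster, coloured by family. The dotted lines mark a fold of 2, bars that end at the frame run past it and triangles mark genes listed at 0 in 1 library; Prl2b1, Prl8a6, Prl5a1 and Psg17 stand lower than their neighbours.

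Other trophoblast genes, which are not members, showed no common direction. Of 11 trophoblast stem cell genes, 10 met the FPKM minimum, 2 were higher (Esrrb, 7.10 and 42.0, and Tfap2c, 6.68 and 24.1) and 2 were lower (Cdx2, 4.00 and 0.705, and Eomes, 5.25 and 1.48). Id2 (109.9 and 65.4) had the highest level of that list in Diff–CONT ESCs. Sox2 (42.7 and 68.2) had the highest in the library labelled Diff–iKO and was not past the cut-off. Elf5 was at 0.0687 and 0.299. Of 10 other giant cell genes, the placental homeobox genes Rhox6 (38.4 and 166) and Rhox9 (25.3 and 141) and Plac1 (11.6 and 26.5) were higher. Hand1, a factor needed for giant cells (70.8 and 31.3), and Mdfi (25.4 and 9.58) were lower. In the junctional zone list, Ascl2, a factor needed for spongiotrophoblast (1.00 and 2.03), was just past the cut-off, with a log2 ratio of 1.02 and an interval of 0.43 to 1.61. Its call was lost with a pseudocount of 0.1 and with both libraries scaled to the same sum. In that list 0 of 7 genes that met the minimum were lower, although Aldh1a3 (3.50 and 1.83) was lower under the scaling to the same sum.

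Of the syncytiotrophoblast genes, 0 of 6 that met the minimum were higher and 1, the lactate transporter gene Slc16a1 (139 and 47.4), was lower. Slc16a3 was at 142 and 77.5, Gcm1 at 0.397 and 0.241, and Synb at 0 in both. The median log2 ratios of these 4 lists were -0.06, 0.24, -0.03 and -0.45, beside 1.88 over the 41 members. Genes of these 4 lists, lower as well as higher, can also be expressed by other cells. Esrrb and Tfap2c, for example, are also expressed in undifferentiated ESCs.

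Most genes known to act with the members were not past the cut-off. The same held over all genes that met the minimum, where 6.73% were higher and 8.39% were lower. The prolactin receptor gene Prlr had an FPKM of 0.404 and 0.70, and its counting interval of -0.39 to 2.01 includes 0. In the list of receptors and signalling genes, 10 of 11 met the minimum. Cd9, which encodes a receptor of the Psg17 protein (130 and 270), was just past the cut-off (log2 1.05, 1.00 to 1.11), a call lost with both libraries scaled to the same sum. Stat5b, a transducer of prolactin signals (9.26 and 4.54), was lower, a call lost with a pseudocount of 1. Of the other cathepsins, 2 of 10 were higher (Ctsd, 461 and 1169, and Ctsw, 1.56 and 3.19) and 1 was lower (Ctsh, 56.8 and 4.53). Under the scaling to the same sum Ctsw was not past the cut-off and Ctso (5.98 and 3.07) was lower. None of the 4 cathepsin inhibitor genes that met the minimum was past the cut-off, and Cstb was at 102 and 202.

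Markers of other cell types differed between the libraries as well. All 6 genes listed for undifferentiated ESCs were higher in the library labelled Diff–iKO, with 0 of them at 0. Their summed FPKM was 418 and 2818 and their median log2 ratio 2.09. Among them Dppa5a was at 258 and 2115 and Pou5f1 at 60.8 and 247. Sox2, which the study used as a pluripotency marker, was counted with the trophoblast stem cell genes instead. It was at 42.7 and 68.2, not past the cut-off. Of 15 visceral and parietal endoderm genes, taken as 1 list, 11 were lower and 0 higher, with a median of -1.86. Not past the cut-off were Sparc (708 and 1244), Col4a1 (327 and 575), Thbd (9.91 and 12.0) and Lama1 (30.5 and 22.8). The list had a sum of 1288 and 1870 that is set by Sparc and Col4a1. Of 7 endothelial genes, 5 were lower and 1, Pecam1 (16.2 and 53.9), was higher, with sums of 56.2 and 69.3. Of 9 epithelial genes, Krt7 (39.2 and 86.4) and Cldn4 (76.2 and 208) were higher and 0 were lower (Cldn6, 174 and 87.6, was lower with both libraries scaled to the same sum), with sums of 1600 and 2193. Of 8 blood genes, 2 met the minimum and both were lower, Hbb-bh1 (88.2 and 0) and Hba-a1 (7.41 and 0.230), with sums of 96.0 and 0.492 and S100a9 at 0 in both. Xist, which marks an inactive X chromosome, was at 0.0639 and 3.59, while Y-linked genes were present in both libraries and lower in the one labelled Diff–iKO. Ddx3y was at 4.07 and 1.89, Eif2s3y at 2.80 and 1.10, Uty at 4.14 and 0.664 and Kdm5d at 1.11 and 0.228. The part of these differences in the levels of the members was not tested.

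**Figure D4:**
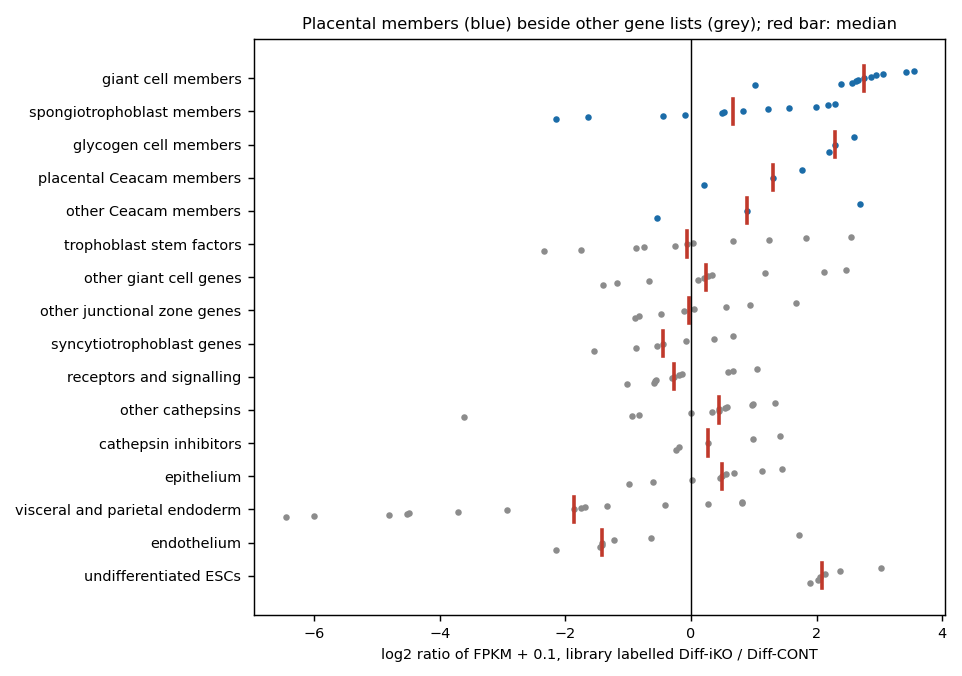
Log2 ratio of FPKM + 0.1 (library labelled Diff–iKO to Diff–CONT) of single genes with an FPKM of at least 0.1 in a library, for the members by subtype (blue) and for other gene lists (grey), with a red bar at each median. The giant cell members have a median of 2.75 and the genes of undifferentiated ESCs of 2.09, while the other trophoblast lists lie between -0.45 and 0.24.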

How the data were processed

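Poly(A) RNA of 1 Diff–CONT and 1 Diff–iKO culture was sequenced (TruSeq stranded libraries, 1 µg of total RNA, paired-end reads). The FPKM values deposited by the authors were made with STAR 2.7.9a on mm10 and Cuffquant and Cuffnorm of Cufflinks 2.2.1, per the study's methods and the submitters' processing notes. The gene annotation, strand setting and handling of multiply mapped reads are not given in the sources used here. Columns were assigned by name, with 0 other columns of values.

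The members and gene lists were chosen with earlier results of these data known. Named genes were members with FPKM ≥ 1 or past the cut-off, the 3 highest of each family and list, members at 0, and list genes past the cut-off; other members were named after their values were seen, and not every gene the rule covers is printed. Of the markers, Hbb-bt was not found.

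Fragments were recovered from the FPKM steps of 5801 genes (a single RefSeq transcript, 1000 nucleotides or longer). With a tolerance of 0.2, 88.4% of 604 and 88.6% of 603 low values were whole, against 40% by chance. Fragments per gene use the shortest matched GENCODE vM21 transcript and are approximate. Intervals and limits cover counting error only. Ribosomal protein genes (75) were never at 0, so no sign of failed estimates was seen there. Libraries of 21770 genes with 200 changed 4-fold were simulated with counting error only and no spread between cultures. The cut-off recovered 100% and called 2 unchanged genes. The changed genes were drawn only from those with levels well above the FPKM minimum. Their full recovery was thus nearly certain beforehand and does not bear on members near that minimum. Alternatives were other pseudocounts, filters, fold minimums and scalings. Values were computed in Python 3.11.15 with pandas 2.3.3 and numpy 2.4.6, intervals with scipy 1.17.1, and plots with matplotlib 3.10.9.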

Additional observations from a re-analysis of the deposited data

How the results depend on the processing

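With 1 library per condition no difference has a replicate check, and leaving out a replicate was not possible. No paired analysis was possible because each condition has 1 library and no test was run. Of the recomputed main results 169 stayed within their limits, 42 moved and 0 reversed. Some of the 169 could not change. Summing by symbol left every value as it was, and the scalings multiplied only the values of the library labelled Diff–iKO. Detection counts in the Diff–CONT library were therefore fixed. The 17 higher members became 15 with both libraries scaled to the same sum (without Prl2c2 and Prl7a1), 16 with a pseudocount of 1 or with FC ≥ 4 (without Ceacam9), 11 with FPKM ≥ 5 and 44 with no filter, and the 0 lower members became 4 with no filter. The genes of the other lists, 19 higher and 25 lower, became 8 and 12 with FC ≥ 4, 16 and 28 with the same sum (without Ascl2, Cd9 and Ctsw, and with Aldh1a3, Cldn6 and Ctso lower), 17 and 25 with a pseudocount of 0.1 and 17 and 24 with a pseudocount of 1 (both without Ascl2 and Ctsw, the second also without Stat5b). Scaling both libraries to the same sum shifted all ratios by -0.09 (log2) and took the cathepsin median from 1.49 to 1.87 through a change in the genes kept, and scaling to the same median or upper quartile shifted them by 0.01. No symbol was repeated, so summing by symbol changed nothing.

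The medians depend most on the pseudocount and the filter, as low genes dominate them. With a pseudocount of 0.01 they were 2.60 over all members, 2.84 for Prl, 2.34 for Psg, 1.71 for Ceacam, 1.82 for cathepsins, 3.16 for giant cell and 2.82 for glycogen cell members. With a pseudocount of 1 they were 0.60, 1.31, 0.31, 0.27, 0.99, 2.13 and 1.55 in that order, and 0.25 for spongiotrophoblast members. With FPKM ≥ 1 they were 2.60 (all), 2.69 (Prl), 2.45 (Psg), 2.00 (Ceacam), 1.97 (cathepsins), 2.30 (Tpbp) and 2.19 (spongiotrophoblast). With no filter they were 0.76 (all), 2.2 (Prl), 0.39 (Ceacam) and 0.67 (cathepsins). The following were chosen after seeing the data. With at least 20 fragments the medians were 2.34 (all), 2.69 (Prl), 2.00 (Ceacam) and 1.97 (cathepsins). Without members that share over 20% of their windows they were 1.77 (all), 2.19 (Prl), 2.86 (giant cell), 2.29 (glycogen cell) and 0.53 (spongiotrophoblast). Without the highest member, the log2 ratio of the summed level was 1.02 for Psg, 1.17 for Ceacam, 1.84 for cathepsins and 0.55 for Tpbp.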
